A study of Mus musculus with 9 samples.

Results

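The cells described here are those of the leading 3 library codes, in column order, of a table of single-cell RNA sequencing counts, called libraries 1, 2 and 3 in that order. They are 8495 of the 29571 cells in the table, with 2575 in library 1, 3175 in library 2 and 2745 in library 3. The study dissected brainstem, cortex and hypothalamus from wild-type mice of 9 to 11 weeks, C57BL/6 in the labels and C57BL/6J in the methods, in 3 sleep groups. Mice either slept undisturbed (normal sleep, NS), were kept awake for 12 h from lights on (sleep deprivation, SD), or were allowed recovery sleep (RS) after the same 12 h of deprivation. All brains were taken at ZT12, the time of lights off. The labels give the recovery as 24 h in one place and 12 h in another. The study's methods give it as 24 h, from ZT12 to ZT12. Mice of every group were housed singly in chambers with a sweeping bar, which drove the deprivation, and all tissue was dissociated with papain and passed over myelin removal beads. Every library holds the pooled tissue of 3 male mice, and the 9 libraries cover each combination of region and group once. There is thus no replicate, and no test between groups can be made. Every interval below is at 95% and covers counting error only.

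The codes in the table are explained neither by the labels nor by the study's text, so the region and group of libraries 1 to 3 are an inference. Their order follows that of the cortex samples in the labels, which would make library 1 cortex NS, library 2 cortex SD and library 3 cortex RS. Barcodes could not test this, because the barcode table was used in a shortened copy in which 0 cortex cells are left, whereas the brainstem NS sheet places its cells in library 7. The number of sequenced cells that the supplementary statistics give for Gjb6 in each cortex group gave an indirect test. The rebuilt astrocyte-like classes held 1049, 1256 and 876 cells in libraries 1, 2 and 3, and in the order NS, SD, RS each was within 4 cells of the listed number. The 3 differences summed to 8 cells in that order and to between 346 and 762 cells in the other 5 orders. With clusters made at resolution 0.5 they summed to 16 cells, the largest being 10, and with library 3 thinned before clustering to 33 cells, the largest being 14. The sheet does not name the cell type, and beside Mt1 and Tsc22d3 it gives another number for 1 of the 3 groups. For the astrocyte-like class the inferred order was the closest of the 6 under all 3 clusterings. The next closest class was the neuron-like one at resolution 0.5, with 681 cells in its best orders and 943 in the inferred one. The inferred order is thus still not an assignment by label. Library numbers are therefore used throughout, and library 2 against 1 and library 3 against 2 stand for SD against NS and RS against SD on the inferred order only. Both comparisons share library 2, so a high or low value in that library gives opposite directions in them by construction.

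The region could be checked on its genes. All 10 listed genes of the cortex and other telencephalon were higher in each of libraries 1 to 3 than in any of libraries 4 to 9, and summed to 1308 to 1709.9 CPM against 16.9 to 30.6 CPM. Slc17a7, the vesicular glutamate transporter of cortical excitatory neurons, stood at 682, 731 and 839 CPM in libraries 1, 2 and 3. Tbr1, a transcription factor of deep-layer cortical neurons, stood at 88.7, 99.8 and 109.8 CPM. The 10 hypothalamic genes summed to 18.1 to 19.1 CPM in libraries 1 to 3 and to 3909 to 22782 CPM in libraries 4 to 6. The 9 brainstem genes summed to 0.657 to 1.09 CPM in libraries 1 to 3 and to 21.1 to 37.5 CPM in libraries 7 to 9. These genes mark telencephalon and do not separate cortex from neighbouring telencephalic tissue, and none of them bears on the sleep group.

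**Figure D1:**
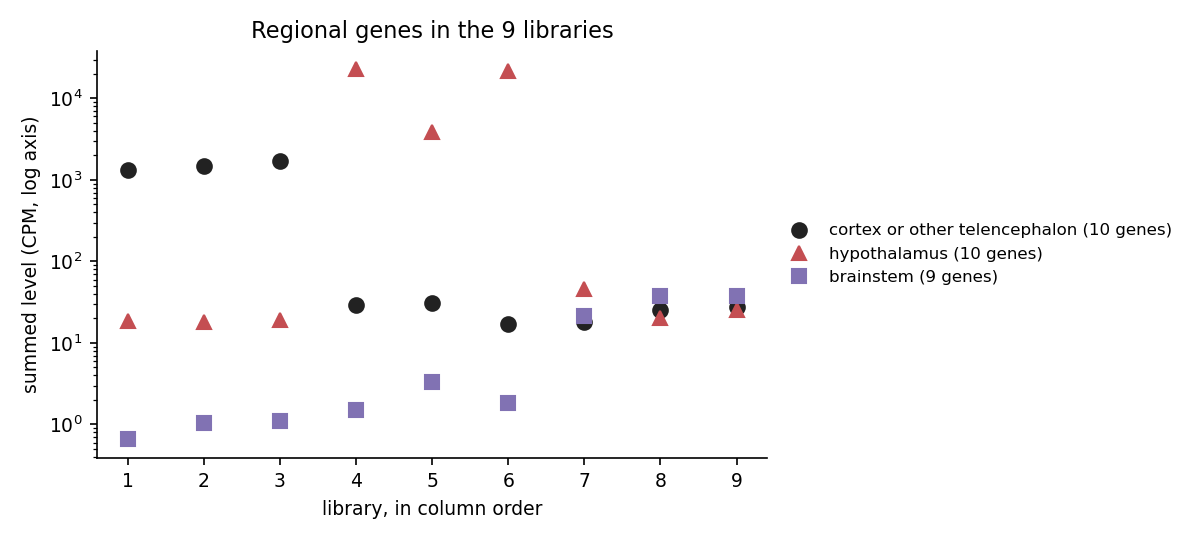
Summed level of the listed regional genes (CPM, log axis) in each of the 9 libraries, in column order. The telencephalic genes lie at 1308 to 1709.9 CPM in libraries 1 to 3 and at 16.9 to 30.6 CPM in the other 6.

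Libraries 1 and 2 were of like depth, and library 3 was deeper. They held 1522766, 1933812 and 3671604 unique molecular identifiers (UMIs, tags that count each captured transcript once), with medians of 402, 406 and 854 UMIs and 247, 266 and 515 genes per cell. The shallowest cell had 263, 265 and 537 UMIs. Mitochondrial genes took 7.69%, 7.88% and 6.97% of the UMIs and hemoglobin genes 0.824%, 0.514% and 0.496%. Any 2 of the 3 libraries shared 5 to 14 cell barcodes. For the main values each cell was thinned at random to 500 UMIs and shallower cells were left out, which removed 1735, 2036 and 0 cells of libraries 1, 2 and 3. The main values therefore rest on the deepest cells of libraries 1 and 2 and on every cell of library 3, and values over all UMIs are given beside them. The level of a gene is its summed UMIs in a class, given as counts per 1000000 UMIs of that class (CPM).

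Sleep loss is known to act on most cell types of the cortex. Neurons switch on activity-dependent genes during wakefulness, among them Bdnf and Homer1, which act at the synapse. Astrocytes clear glutamate and potassium, couple to each other through gap junctions and supply neurons with glutamine and lactate. The glucocorticoid receptor acts on genes such as Tsc22d3, which encodes the anti-inflammatory leucine zipper protein GILZ, and Fkbp5, which encodes a co-chaperone that restrains the receptor. Metallothioneins bind zinc and copper and respond to metals, glucocorticoids and oxidative stress, and Dbp is an output gene of the circadian clock.

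Clustering of the cells of libraries 1 to 3 gave 21 clusters, of which 16 were named from marker genes and formed 10 classes. Over all cells astrocyte-like cells were the largest class in each library, at 40.7% (38.8 to 42.7), 39.6% (37.9 to 41.3) and 31.9% (30.2 to 33.7) of the cells of libraries 1, 2 and 3. Neuron-like cells made up 13.1% (11.8 to 14.5), 15% (13.8 to 16.3) and 26.5% (24.8 to 28.2), and at resolution 0.5, where fewer and broader clusters are made, 23.5%, 27.7% and 36.6%, which exceeds the astrocyte-like share in library 3. Microglia-like cells made up 17.9% (16.4 to 19.4), 8.06% (7.14 to 9.06) and 5.87% (5.02 to 6.81), and library 1 lay above the other two. Endothelial-like cells made up 3.34% (2.68 to 4.11), 7.46% (6.57 to 8.43) and 8.60% (7.58 to 9.71), with library 1 lowest. GABA neuron-like cells, marked by the GABA-synthesis genes Gad1 and Gad2, held 66, 74 and 78 cells and their 3 intervals overlapped. Pericyte-like cells numbered 84, 135 and 117, arterial smooth muscle-like cells 92, 134 and 147, fibroblast-like or leptomeningeal cells 46, 58 and 49, hemoglobin-rich vascular cells 27, 51 and 47 and macrophage-like cells 46, 20 and 16. The 5 unnamed clusters held 280, 477 and 291 cells, in which the 10 general neuronal markers summed to 14944, 13639 and 14976 CPM, near the 15085, 15909 and 16227 CPM of the neuron-like class. Cluster 13, with 37, 107 and 54 cells of libraries 1, 2 and 3, was the one among them led by genes of vessels, such as Pglyrp1, Cxcl12 and Erg, and these cells are not counted as endothelial-like. Of the others, one of 43 cells was led by the activity genes Npas4, Egr4 and Fos, and one of 35 cells by the antigen presentation genes Cd74 and H2-Ab1.

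Depth differed little between libraries 1 and 2, whereas the shares of library 3 cannot be told apart from its depth. The shallowest cells of libraries 1 and 2 lie below the minimum of library 3, and the classes differ in UMIs per cell, with medians in library 1 of 1279 for neuron-like, 395 for astrocyte-like and 312 for microglia-like cells. Among cells of at least 500 UMIs, an alternative chosen after seeing the data, neuron-like cells made up 33.1%, 34.5% and 26.5%, astrocyte-like cells 28.0%, 18.6% and 31.9% and microglia-like cells 5.48%, 3.51% and 5.87% of libraries 1, 2 and 3. Neuron-like cells were then the largest class in libraries 1 and 2. The neuron-like share of library 3 then lay below those of libraries 1 and 2, where over all cells it lay above them. The endothelial-like share was lowest in library 1 in both counts, at 2.98%, 6.23% and 8.60% among cells of at least 500 UMIs.

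**Figure D2:**
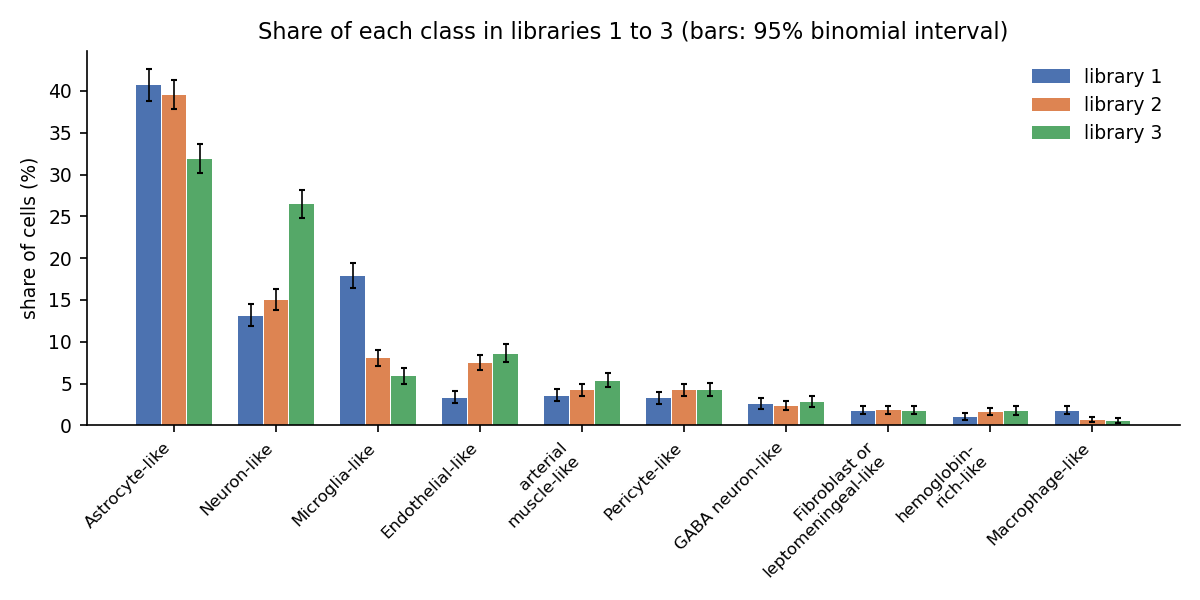
Share of the cells of libraries 1, 2 and 3 in each named class (percent), with exact binomial 95% intervals as error bars. The microglia-like share falls outside the intervals of the other libraries in library 1 and the neuron-like share in library 3, over all cells and with no equal minimum of UMIs.

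The astrocyte-like class kept 235, 212 and 876 cells of libraries 1, 2 and 3 at 500 UMIs. Of 2649 genes of at least 50 CPM on average, 34.6% differed by 1.5-fold or more between library 2 and library 1, after adding 10 CPM to both, and 28.2% between library 3 and library 2. Over all UMIs these shares were 13.4% and 6.98%. For 5.81% of the genes the ratio of library 2 to library 1 was also past that fold upwards with an interval that left out 1, and for 1.85% downwards. For library 3 against 2 these shares were 1.93% and 7.74%. A gene is called higher or lower below only where both hold. The median gene differed by 0.13 and -0.16 on the log2 scale. No single cluster held most of this class in any library. Cluster 2, led by the amino acid transporter gene Slc7a10 and by Gjb6, was the largest in libraries 1 and 2, and held 334, 485 and 295 cells. Cluster 3, led by the water channel gene Aqp4, was the largest in library 3 and held 144, 214 and 429, and cluster 4, led by Atp13a4, held 316, 363 and 52.

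Among the glucocorticoid targets, Tsc22d3 had its highest level in library 2. At 500 UMIs per cell it stood at 459.6, 1019 and 753 CPM in libraries 1, 2 and 3, and over all UMIs at 467, 1104 and 737 CPM. The ratio of library 2 to library 1 was 2.22 (1.58 to 3.13) and that of library 3 to library 2 was 0.739 (0.593 to 0.928). Library 3 thus lay between the other two, and the 3 Poisson intervals did not overlap over all UMIs. Tsc22d3 lies at chrX:140539528-140600522 in GRCm38.

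Sult1a1, a sulfotransferase, stood at 68.1, 151 and 45.7 CPM at 500 UMIs and at 61.7, 181 and 51.7 CPM over all UMIs. The ratio over all UMIs was 2.93 (1.90 to 4.64) for library 2 against 1 and 0.286 (0.189 to 0.425) for library 3 against 2. Library 2 was the high library, and libraries 1 and 3 overlapped. Fkbp5 was sparse, with 17, 46 and 20 UMIs in the 3 libraries, or 37.5, 88.4 and 28.7 CPM. Cebpb, a transcription factor of acute responses, gave 12, 46 and 28 UMIs, or 26.4, 88.4 and 40.2 CPM. Both were highest in library 2, with ratios over all UMIs of 2.36 (1.33 to 4.39) and 3.34 (1.74 to 6.93) against library 1. At 500 UMIs neither ratio to library 1 had an interval that left out 1. Klf9, a Krüppel-like repressor, was at 187, 209 and 126 CPM over all UMIs and was lower in library 3 than in library 2 by a ratio of 0.604 (0.451 to 0.807).

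Of the 18 listed glucocorticoid targets, 7 reached 50 CPM at 500 UMIs and 8 over all UMIs. In library 2 against 1, 1 was higher and 0 lower at 500 UMIs, where 5.81% of all genes were higher and 1.85% lower. There were 5 higher and 0 lower over all UMIs, where 8.89% of all genes were higher and 2.29% lower. Those over all UMIs were Tsc22d3, Sult1a1, Fkbp5, Cebpb and Ddit4, an inhibitor of mTOR signalling. In library 3 against 2, 2 were lower and 0 higher at 500 UMIs, where 7.74% of all genes were lower and 1.93% higher. There were 4 lower and 0 higher over all UMIs, where 4.65% of all genes were lower and 1.87% higher. The list's median log2 ratio at 500 UMIs was 0.33 for library 2 against 1 and -0.43 for library 3 against 2. The medians of all genes were 0.13 and -0.16.

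The metallothionein genes Mt1 and Mt2 lie next to each other on chromosome 8, at chr8:94178883-94180327 and chr8:94172618-94173567 in GRCm38. Their promoters are shown because both genes were highest in library 2 in these cells and are known to respond to metals and glucocorticoids. Each runs from 250 bases before the start to 50 bases after it on the plus strand, as given by RefSeq for GRCm38.p6, the Mt1 one at chr8:94178839-94179138 and the Mt2 one at chr8:94172368-94172667. The start that the promoter table takes for Mt1 lies inside the range of the gene. Capitals mark the metal response core TGCGCNC or TGCACNC on either strand and, in Mt1 alone, the palindrome of the glucocorticoid response element, searched as GNACA, any 3 bases and TGTNC.
Mt1: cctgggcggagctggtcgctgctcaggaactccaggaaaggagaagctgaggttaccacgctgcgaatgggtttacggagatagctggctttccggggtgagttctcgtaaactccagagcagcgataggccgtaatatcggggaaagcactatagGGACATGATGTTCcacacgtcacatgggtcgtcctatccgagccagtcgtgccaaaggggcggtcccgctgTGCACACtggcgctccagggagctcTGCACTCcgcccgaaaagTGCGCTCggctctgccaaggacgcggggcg
Mt2: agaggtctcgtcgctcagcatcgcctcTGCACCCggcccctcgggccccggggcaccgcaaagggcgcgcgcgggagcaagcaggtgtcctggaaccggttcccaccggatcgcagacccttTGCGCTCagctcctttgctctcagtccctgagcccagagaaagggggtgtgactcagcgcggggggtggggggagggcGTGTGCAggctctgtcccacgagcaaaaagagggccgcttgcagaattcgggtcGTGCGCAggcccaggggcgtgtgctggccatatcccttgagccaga
These letters are a description of the windows and not a site or a cause. The core was found 3 times in the Mt1 window and 4 times in that of Mt2. At least 1 core was found in 25.7% of all 32851 promoter windows and 3 or more in 1.97%, and the palindrome in 0.475%. The 2 motifs do not overlap in these windows.

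Mt1 stood at 19047, 25283 and 17247 CPM in astrocyte-like cells of libraries 1, 2 and 3 at 500 UMIs and at 16121, 22808 and 17217 CPM over all UMIs. The ratio was 1.33 (1.25 to 1.40) for library 2 against 1 and 0.682 (0.653 to 0.713) for library 3 against 2, so that libraries 1 and 3 lay on the same side of library 2. Mt2 stood at 6136, 7472 and 5043 CPM at 500 UMIs, with ratios of 1.22 (1.10 to 1.35) and 0.675 (0.622 to 0.733). Neither gene passed 1.5-fold at 500 UMIs, although the intervals of both left out 1. Mt3, the metallothionein of the brain, stood at 7234, 8453 and 7251 CPM, with ratios of 1.17 (1.06 to 1.28) and 0.858 (0.796 to 0.925). In cluster 2 alone, an alternative chosen after seeing the data, Mt1 stood at 12893, 21309.9 and 12529 CPM and Mt2 at 4190.2, 6755 and 3824 CPM over all UMIs, with libraries 1 and 3 again closer to each other than to library 2.

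Dbp, a transcription factor driven by the clock, was lowest in library 2. It stood at 511, 198 and 347 CPM at 500 UMIs and at 469, 207 and 361 CPM over all UMIs. The ratio was 0.388 (0.224 to 0.647) for library 2 against 1 and 1.75 (1.11 to 2.91) for library 3 against 2. Dbp lies at chr7:45705100-45710203 in GRCm38. Of the 18 listed genes of the clock and its output, 12 reached 50 CPM at 500 UMIs. Dbp was the only one called in either comparison at that depth. Of all genes 7.66% were called in library 2 against 1 and 9.66% in library 3 against 2. At 300 UMIs 1 of the list was higher and 2 lower in library 2 against 1, Dbp and Hlf among them. The shares of all genes were then 6.46% and 2.24%. Hlf, which binds the same DNA element as Dbp, was measured with 7, 9 and 39 UMIs at 500 UMIs per cell and with 24, 48 and 60 UMIs over all UMIs, or 52.9, 92.2 and 86.2 CPM. Its ratio of library 2 to library 1 over all UMIs was 1.74 (1.05 to 2.98). Per3, a period gene of the clock, stood at 293, 238 and 243 CPM over all UMIs, with intervals of both ratios that held 1. All 3 groups were collected at ZT12, so the labels give no difference in the time of day.

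Among the genes of astrocyte support functions, the gap junction gene Gjb6 was called in both comparisons at both depths. It stood at 698, 1113 and 687 CPM at 500 UMIs and at 632, 1235 and 654 CPM over all UMIs. The ratio was 1.60 (1.19 to 2.14) for library 2 against 1 and 0.617 (0.497 to 0.770) for library 3 against 2, and the intervals of libraries 1 and 3 overlapped. Gjb6 lies at chr14:57123301-57133611 in GRCm38. Gja1, the other main connexin gene of astrocytes, stood at 1004, 1358 and 1251 CPM, with ratios of 1.35 (1.05 to 1.74) and 0.921 (0.765 to 1.11). Glul, the glutamine synthetase, stood at 3447, 5000 and 3532 CPM, with ratios of 1.45 (1.27 to 1.66) and 0.706 (0.640 to 0.781), short of 1.5-fold in both comparisons. The glutamate transporter genes Slc1a2 and Slc1a3 stood at 3983, 3462 and 3139 CPM and at 2196, 2453 and 2792 CPM, and neither was called. Ntrk2, the receptor gene for brain-derived neurotrophic factor, stood at 723, 811 and 646 CPM, with intervals of both ratios that held 1. Of the 25 genes of the list, all of which reached 50 CPM, 2 were higher and 1 lower in library 2 against 1, and 3 were higher and 2 lower in library 3 against 2. The shares over all genes were 5.81% higher and 1.85% lower, and 1.93% higher and 7.74% lower. Over all UMIs Gjb6 was the only one called in either comparison.

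6 further genes were chosen after their values had been seen, of which the naming rule also gives Slc38a3. Mfsd2a, a carrier of lysophosphatidylcholine, stood at 145, 283 and 151 CPM at 500 UMIs and at 145, 380.3 and 142 CPM over all UMIs. Lrrc8a, a subunit of the volume-regulated anion channel, stood at 102, 339.6 and 205 CPM at 500 UMIs and at 172, 375 and 213 CPM over all UMIs. Both were highest in library 2. Slc38a3, a glutamine transporter, went the other way, at 229.8, 104 and 267 CPM at 500 UMIs and 242, 131 and 244 CPM over all UMIs. Its ratio was 0.452 (0.202 to 0.941) for library 2 against 1 and 2.57 (1.39 to 5.30) for library 3 against 2. In cluster 2 alone it stood at 308, 178 and 208 CPM, and the ratio of library 3 to library 2 no longer reached 1.5-fold. Mrpl41, of the mitochondrial ribosome, stood at 204, 538 and 215 CPM, and Sepp1, the selenium carrier selenoprotein P, at 383, 896 and 548 CPM. Rsrp1, an arginine- and serine-rich protein, stood at 519, 1075 and 751 CPM. In each of Mrpl41, Sepp1 and Rsrp1 library 2 was the high library at both depths and in cluster 2 alone.

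**Figure D3:**
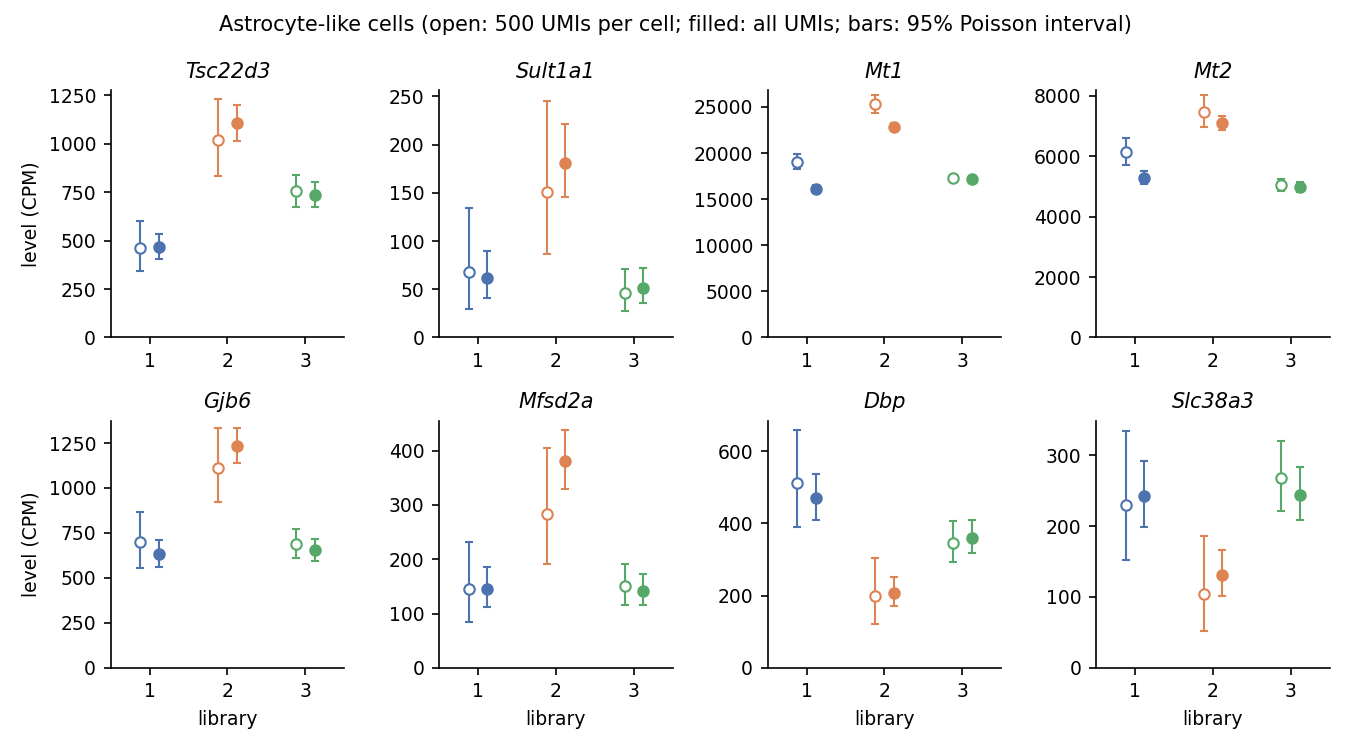
Level (CPM) of 8 genes in astrocyte-like cells of libraries 1, 2 and 3, thinned to 500 UMIs per cell (open points) and over all UMIs (filled points), with exact Poisson 95% intervals as error bars. Tsc22d3, Sult1a1, Mt1, Mt2, Gjb6 and Mfsd2a are highest in library 2, and Dbp and Slc38a3 are lowest there.

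The genes with the largest ratios of library 2 to library 1 by the naming rule were Ptgds, Snap25 and Nap1l5. Ptgds, a prostaglandin D synthase, stood at 34.0, 339.6 and 187 CPM at 500 UMIs, Snap25, a synaptic fusion protein, at 42.6, 396 and 162 CPM and Nap1l5 at 25.5, 208 and 73.1 CPM. In library 1 these values rest on 4, 5 and 3 UMIs. Snap25 and Nap1l5 are genes of neurons, and Ptgds is also a marker of leptomeningeal cells. Of the 26 listed genes of the synaptic vesicle cycle, 18 reached 50 CPM in this class. In library 2 against 1, 6 of them were higher and none lower, beside 5.81% and 1.85% of all genes. Their median log2 ratio was 0.85 against 0.13 for all genes. In library 3 against 2, 5 were lower at 500 UMIs and 0 over all UMIs, beside 7.74% and 4.65% of all genes, with none higher at either depth. The 10 general neuronal markers summed over all UMIs to 593, 1395 and 1398 CPM in the astrocyte-like cells of libraries 1, 2 and 3, with none at 0. The same sum in the neuron-like class was 15085, 15909 and 16227 CPM. Their part in the results of the astrocyte-like class was not tested. In cluster 2 alone Snap25 stood at 86.0, 118 and 212 CPM and Syt1, the calcium sensor of vesicle release, at 43.0, 80.7 and 154 CPM, highest in library 3, while Tsc22d3 at 401, 1270.3 and 753 CPM, Gjb6 at 795, 1744 and 729 CPM and Dbp at 423, 188 and 333 CPM kept library 2 as the extreme library.

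The other genes of the naming rule were Srebf1, Nisch and Pfdn2, the lowest in library 2 against 1, and Nisch, Rbm25, Slc38a3, Syt1, Rpl23a-ps3 and Nap1l5 in library 3 against 2. Srebf1, a regulator of fatty acid synthesis, stood at 179, 56.6 and 79.9 CPM at 500 UMIs and 159, 102 and 86.2 CPM over all UMIs. Nisch, an integrin-binding protein, stood at 196, 66.0 and 164 CPM at 500 UMIs and 167, 133 and 168 CPM over all UMIs. Pfdn2, a prefoldin subunit, stood at 238, 84.9 and 91.3 CPM and 192, 165 and 118 CPM. Rbm25, a splicing factor, stood at 162, 84.9 and 205 CPM and 194, 152 and 213 CPM. Over all UMIs the ratios of Nisch and Pfdn2 for library 2 against 1 were 0.792 (0.563 to 1.11) and 0.862 (0.632 to 1.17), and those of Nisch and Rbm25 for library 3 against 2 were 1.27 (0.934 to 1.73) and 1.40 (1.06 to 1.87), all short of 1.5-fold. Rpl23a-ps3 is a pseudogene of a ribosomal protein gene that may share reads with it, so its 247, 245 and 86.8 CPM are uncertain.

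The larger housekeeping groups were read against all genes of this class at 500 UMIs, of which 5.81% were higher and 1.85% lower in library 2 against 1, and 1.93% higher and 7.74% lower in library 3 against 2. Of 77 cytosolic ribosomal protein genes, 3 were lower and 0 higher in library 2 against 1, and 8 lower and 0 higher in library 3 against 2. Over all UMIs none was lower in either comparison, and the only one called was Rpl5, higher in library 3 against 2. Of 81 nuclear genes of oxidative phosphorylation that reached 50 CPM, 4 were higher and 1 lower in library 2 against 1, and 3 lower in library 3 against 2. The 12 measured genes of the mitochondrial genome had median log2 ratios of 0.00 and -0.28, against 0.13 and -0.16 for all genes. Of them, mt-Atp8, of the ATP synthase, and mt-Nd3, of complex I, were lower in library 3 against 2.

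The shares over all genes of this class at 500 UMIs were 5.81% higher and 1.85% lower in library 2 against 1. In library 3 against 2 they were 1.93% higher and 7.74% lower. Beside them, 3 of 10 cytosolic and mitochondrial chaperone genes were higher in library 2 against 1, namely Hspa8, Hsp90aa1 and Cct5. In library 3 against 2, Hsp90aa1 and Cct5 were lower. Hsp90aa1, a heat shock protein, stood at 136, 264 and 137 CPM, with library 2 highest, and was the only one of the list also called over all UMIs, in library 2 against 1. Of 11 genes of protein folding in the endoplasmic reticulum, 2 were higher in library 2 against 1 at 500 UMIs, Calr and Xbp1. Both were also higher over all UMIs, beside 8.89% of all genes. In library 3 against 2, Calr, a calcium-binding chaperone, was lower, at 42.6, 283 and 174 CPM, and Hspa5, the main chaperone of this compartment, was higher, at 204, 132 and 263 CPM, and over all UMIs neither was called. At 300 UMIs per cell no gene of either chaperone list was called in either comparison, beside 8.71% and 6% of all genes. Of 13 genes of sterol synthesis, none was called in either comparison at 500 UMIs, which is near the shares over all genes.

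The neuron-like class kept 278, 393 and 727 cells at 500 UMIs and was a single cluster, with medians of 1279, 1154 and 2187 UMIs. Of 4111 genes, 21% differed by 1.5-fold or more between libraries 2 and 1 and 13.9% between libraries 3 and 2, against 5.04% and 2.17% over all UMIs. With an interval that left out 1, 2.43% were higher and 2.02% lower in library 2 against 1, and 2.21% higher and 2.87% lower in library 3 against 2.

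Bdnf, the brain-derived neurotrophic factor, was highest in library 2. It stood at 115, 153 and 60.5 CPM in libraries 1, 2 and 3 at 500 UMIs and at 78.7, 151 and 76.5 CPM over all UMIs. The ratio of library 2 to library 1 was 1.33 (0.700 to 2.61) at 500 UMIs and 1.92 (1.29 to 2.90) over all UMIs. The ratio of library 3 to library 2 was 0.396 (0.218 to 0.711) at 500 UMIs and 0.507 (0.387 to 0.666) over all UMIs. At 300 UMIs per cell Bdnf was called in neither comparison. Bdnf lies at chr2:109674700-109727043 in GRCm38. Homer1, a scaffold of the postsynaptic density, stood at 179.9, 295 and 325 CPM at 500 UMIs and 188, 279.5 and 312 CPM over all UMIs, with library 1 lowest. Its ratio of library 2 to library 1 was 1.64 (1.01 to 2.74) at 500 UMIs and 1.49 (1.14 to 1.95) over all UMIs, where it fell just short of 1.5-fold. Libraries 2 and 3 overlapped at both depths. At 300 UMIs per cell Homer1 was not called in library 2 against 1 but was called in library 3 against 2.

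Other immediate early genes, which neurons transcribe within minutes of activity, were not highest in library 2 in the way of Bdnf. Arc stood at 129, 133 and 136 CPM, Egr1 at 520.0, 520.5 and 576 CPM and Nr4a1 at 175, 157 and 157 CPM over all UMIs, with intervals of every ratio that held 1. Fos stood at 122, 112 and 67.0 CPM and Junb at 457, 386 and 271 CPM over all UMIs, lowest in library 3 with ratios to library 2 of 0.596 (0.440 to 0.812) and 0.702 (0.600 to 0.823). Of the 23 listed genes, 12 reached 50 CPM. In library 2 against 1, 1 was higher and 0 lower at 500 UMIs, and in library 3 against 2, 2 were lower and 0 higher. Beside them 2.43% of all genes were higher in the first comparison and 2.87% lower in the second. Over all UMIs Bdnf was higher and Btg2, an antiproliferative gene, lower in library 2 against 1, and Bdnf, Btg2 and Fos were lower in library 3 against 2. Over all UMIs 2.72% of all genes were higher and 1.26% lower in the first comparison, and 1.58% were lower in the second. Btg2 stood at 120.2, 62.6 and 21.8 CPM. The 43 cells led by Npas4, Egr4 and Fos fell outside this class.

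Mt1 was lowest in library 3 in neuron-like cells. It stood at 576, 524 and 299.9 CPM at 500 UMIs and at 503, 524 and 251 CPM over all UMIs, with a ratio of library 3 to library 2 of 0.572 (0.433 to 0.756) and of library 2 to library 1 of 0.911 (0.673 to 1.24) at 500 UMIs. The level lay far below that in astrocyte-like cells, and the 12 astrocyte markers also summed to less in library 3, at 1307, 1198 and 952 CPM in libraries 1, 2 and 3 with none at 0. Their part in this result was not tested. Tsc22d3 was sparse in this class, at 86.3, 86.5 and 74.3 CPM at 500 UMIs and 43.7, 78.7 and 64.8 CPM over all UMIs. Dbp stood at 192, 178 and 179.8 CPM and Hlf at 279.7, 349 and 319 CPM over all UMIs, and neither was called.

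By the naming rule, the highest genes in library 2 against 1 were Gpr158, Ppm1b and Hcfc1r1. Gpr158, a metabotropic receptor, stood at 43.2, 183 and 116 CPM at 500 UMIs and 96.1, 154 and 132 CPM over all UMIs, with a ratio over all UMIs of 1.60 (1.11 to 2.35). Ppm1b, a protein phosphatase, stood at 36.0, 132 and 132 CPM at 500 UMIs and 67.7, 99.6 and 102 CPM over all UMIs. Hcfc1r1 stood at 79.1, 224 and 182 CPM at 500 UMIs but at 164, 175 and 185 CPM over all UMIs, where its ratio was 1.07 (0.789 to 1.45). The lowest were Spryd3, Cacna1b and Reep2. Cacna1b, the pore subunit of a presynaptic calcium channel, stood at 137, 56.0 and 127 CPM and 118, 99.6 and 123 CPM. Reep2, which shapes the endoplasmic reticulum, stood at 237, 102 and 212 CPM and 175, 122 and 163 CPM. Spryd3 stood at 151, 61.1 and 99.0 CPM and 135, 81.9 and 112 CPM. Of these 6 genes, Gpr158 and Spryd3 passed 1.5-fold over all UMIs.

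In library 3 against 2 the rule gave Iscu, Faah and Arhgdig as highest and Bdnf, Sep15 and Lrp11 as lowest. Faah, the enzyme that breaks down anandamide, stood at 115, 81.4 and 182 CPM at 500 UMIs and 87.4, 98.0 and 129 CPM over all UMIs. Iscu, the scaffold of iron-sulfur cluster assembly, stood at 115, 71.2 and 162 CPM and 114, 108 and 153 CPM. Arhgdig stood at 115, 76.3 and 171 CPM and 151, 127 and 170.3 CPM. Sep15, a selenoprotein, stood at 165, 209 and 93.5 CPM and 146, 178 and 136 CPM, and Lrp11 at 129, 219 and 99.0 CPM and 133, 146 and 107 CPM. Over all UMIs Bdnf alone among these 6 passed 1.5-fold.

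**Figure D4:**
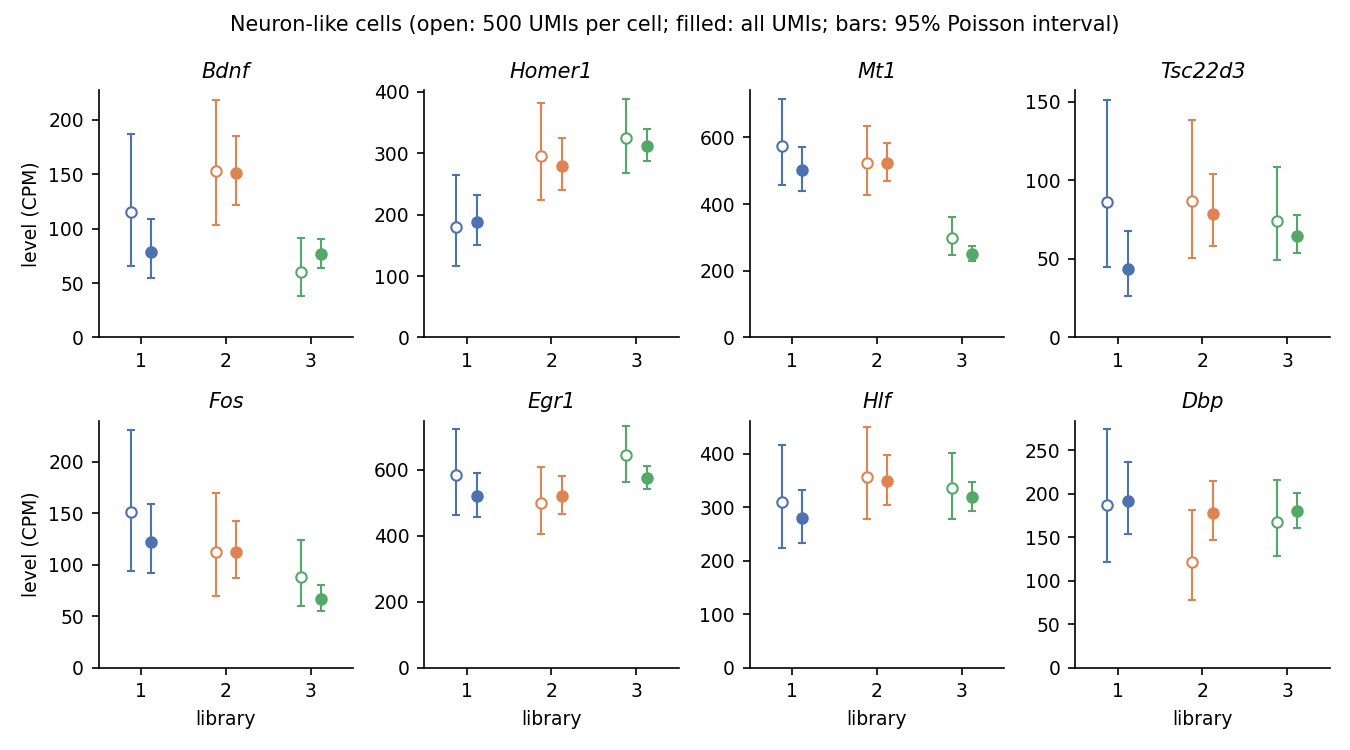
Level (CPM) of 8 genes in neuron-like cells of libraries 1, 2 and 3, thinned to 500 UMIs per cell (open points) and over all UMIs (filled points), with exact Poisson 95% intervals as error bars. Bdnf is highest in library 2, Mt1 lowest in library 3 and Homer1 lowest in library 1.

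Of 25 measured genes of the synaptic vesicle cycle in neuron-like cells, none was called in library 2 against 1 at 500 UMIs. Of all genes 2.43% were higher and 2.02% lower, so a count of 0 is near those shares. Snap25 stood at 2691, 3583 and 3604 CPM and Syt1 at 1669, 1796 and 1689 CPM. Of 14 genes of kinesin transport, which carries cargo along axons and dendrites, none was called in library 2 against 1 and 2, Kif3c and Kif5b, were lower in library 3 against 2, beside 2.87% of all genes, with none called over all UMIs. The cold-inducible genes Cirbp and Rbm3 stood at 158, 112 and 146 CPM and at 281, 239 and 242 CPM, with intervals of every ratio that held 1. Of 77 ribosomal protein genes, 3 were lower in library 2 against 1 and 1 in library 3 against 2, beside 2.02% and 2.87% of all genes, and none was called over all UMIs. In the smaller GABA neuron-like class, fewer than 50 cells of libraries 1 and 2 reached 500 UMIs. Over all UMIs Mt1 stood at 971, 847 and 473 CPM in it, with a ratio of library 3 to library 2 of 0.558 (0.386 to 0.808), and Snap25 at 2139.9, 3096 and 2879 CPM.

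The microglia-like, endothelial-like, pericyte-like and arterial smooth muscle-like classes kept fewer than 50 cells in at least 1 library at 500 UMIs, so their values are given over all UMIs, where library 3 is deeper, and for the main genes also at 300 UMIs. At 300 UMIs the microglia-like class kept 279, 164 and 161 cells, and 46.6% of its genes differed by 1.5-fold or more between libraries 2 and 1 and 47.1% between libraries 3 and 2. With an interval that left out 1, 7.03% of genes were higher and 2.48% lower in library 2 against 1 over all UMIs, and 2.22% higher and 3.4% lower in library 3 against 2.

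In this class the chemokine genes Ccl3 and Ccl4, which draw immune cells, were highest in library 2. Over all UMIs Ccl3 stood at 136, 542 and 144 CPM and Ccl4 at 178, 664 and 280.1 CPM in libraries 1, 2 and 3, from 23, 58 and 20 UMIs and 30, 71 and 39 UMIs. The ratios of library 2 to library 1 were 3.98 (2.42 to 6.76) and 3.73 (2.41 to 5.93), and those of library 3 to library 2 were 0.265 (0.151 to 0.447) and 0.422 (0.278 to 0.632). At 300 UMIs Ccl3 stood at 179, 589 and 145 CPM and Ccl4 at 299, 732 and 352 CPM.

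Most of the measured immediate early genes were higher in library 2 than in library 1. Of 10 measured over all UMIs, 8 were higher in library 2 against 1 and none lower, at a median log2 ratio of 1.39 against 0.15 for all genes, while 1, Jun, was lower in library 3 against 2. At 300 UMIs 4 were higher in library 2 against 1, namely Jun, Junb, Fos and Dusp1, beside 4.06% of all genes. Fos stood at 88.9, 346 and 280.1 CPM over all UMIs and 131, 427 and 352 CPM at 300 UMIs, and Jun at 136, 496 and 215 CPM and 167, 609.8 and 228 CPM. Junb stood at 273, 645 and 481 CPM and 287, 569 and 538 CPM. The metallothionein genes were also higher in library 2 than in library 1, Mt1 at 1949, 3946 and 3059 CPM and Mt2 at 344, 1085 and 890.4 CPM over all UMIs, and at 1876, 4654 and 2899 CPM and 406, 1443 and 600.4 CPM at 300 UMIs. So was Tsc22d3, at 201, 458 and 359 CPM over all UMIs and 203, 488 and 455 CPM at 300 UMIs.

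Genes of other cell types were also higher in library 2 than in library 1 of this class. The 12 astrocyte markers summed to 2654, 5133 and 4862 CPM and the 10 general neuronal markers to 1736, 3684 and 3978 CPM in libraries 1, 2 and 3, with none at 0, while the 10 microglia markers summed to 29563, 25936 and 19439 CPM. Gjb6, a gene of astrocytes, stood at 47.4, 252 and 122 CPM here, and 12 of 21 measured genes of astrocyte support and 12 of 23 of the synaptic vesicle cycle were higher in library 2 against 1, beside 7.03% of all genes. Their part in the values of Mt1, Mt2, Tsc22d3 and the immediate early genes was not tested. Ccl3 reached 50 CPM in no other of the 7 classes examined, which do not include macrophage-like cells. The part of other cells in its values and in those of Ccl4 was not tested. Of 21 genes of resting microglia, 4 were lower in library 2 against 1, namely Olfml3, Cd9, Siglech and Trem2, beside 2.48% of all genes, and none was called in library 3 against 2. At 300 UMIs 3 of them were lower, without Cd9, and P2ry13 was higher, beside 1.88% of all genes lower and 4.06% higher. The class joins 2 clusters in different proportions, cluster 5 with 381, 180 and 109 cells and cluster 12 with 80, 76 and 52 cells of libraries 1, 2 and 3, and Trem2 is among the leading genes of cluster 5 only. The part of these proportions in the values of the class was not tested. Trem2, a lipid receptor, stood at 2222, 1290.2 and 1321 CPM, and P2ry12, the purine receptor of resting microglia, at 1765, 1439.8 and 1120.2 CPM.

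The endothelial-like class kept 69, 196 and 236 cells at 300 UMIs, where 56.5% and 41.4% of its genes differed by 1.5-fold or more in the 2 comparisons. Over all UMIs, 2.05% were higher and 2.96% lower in library 2 against 1 with an interval that left out 1, and 2.31% higher and 3.81% lower in library 3 against 2. Cdkn1a, an inhibitor of the cell cycle that glucocorticoids also act on, stood at 479, 1043 and 504 CPM over all UMIs and at 628, 1020.4 and 551 CPM at 300 UMIs. Its ratio over all UMIs was 2.18 (1.32 to 3.80) for library 2 against 1 and 0.483 (0.368 to 0.633) for library 3 against 2. Mt2 stood at 506, 908 and 254 CPM over all UMIs, with ratios of 1.79 (1.09 to 3.10) and 0.280 (0.198 to 0.393), and at 338, 646 and 282 CPM at 300 UMIs. At 300 UMIs the ratios of library 2 to library 1 of both genes had intervals that held 1. Tsc22d3 was at least as high here as in astrocyte-like cells, at 879, 1205 and 1035 CPM, and its ratios of 1.37 (0.931 to 2.07) and 0.859 (0.691 to 1.07) had intervals that held 1. The astrocyte markers summed to 2157, 2005 and 1326 CPM in this class. Those of hemoglobin-rich vascular cells summed to 399, 1070 and 360 CPM. The fibroblast-like or leptomeningeal markers summed to 186, 566 and 166 CPM, and these last and the hemoglobin-rich ones were highest in library 2. The part of any of these markers in the values of Cdkn1a, Mt1 and Mt2 was not tested.

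Dusp1, a phosphatase that ends kinase signalling, and Junb were lowest in library 3 of this class, at 506, 485 and 222 CPM and at 133, 179.8 and 23.1 CPM over all UMIs. At 300 UMIs Dusp1 stood at 338, 408 and 268 CPM, with an interval of the ratio of library 3 to library 2 that held 1. Of 24 genes of the blood-brain barrier and its transport, 2 were higher and 1 lower in library 2 against 1, beside 2.05% and 2.96% of all genes. Slc3a2, the heavy chain of amino acid exchangers, was among those higher at 612, 1133 and 739 CPM, with ratios of 1.85 (1.18 to 3.02) and 0.653 (0.514 to 0.831), and at 300 UMIs its ratio of library 2 to library 1 had an interval that held 1, at 1.57 (0.889 to 2.96). Cldn5, the main claudin of the barrier, stood at 2609, 3317 and 3160.4 CPM, and Slc2a1, its glucose transporter, at 2982, 3020.3 and 2135 CPM, and neither was called over all UMIs. Mfsd2a, which was highest in library 2 in astrocyte-like cells, stood at 159.7, 153 and 171 CPM here, with intervals of both ratios that held 1.

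Over all UMIs the ratio of Mt1 in library 2 to library 1 was above 1, with an interval that left out 1, in the astrocyte-like, microglia-like, endothelial-like, pericyte-like and arterial muscle-like cells, and its interval held 1 in both neuron-like classes. The ratio passed 1.5-fold in the microglia-like, pericyte-like and arterial muscle-like cells and stayed short of it at 1.41 (1.37 to 1.46) in astrocyte-like and 1.35 (1.03 to 1.78) in endothelial-like cells. In pericyte-like cells Mt1 stood at 2251, 4345 and 2663 CPM over all UMIs and 2048, 5041 and 3134 CPM at 300 UMIs, and in arterial muscle-like cells at 597, 1286 and 925 CPM over all UMIs and 562, 1424 and 907 CPM at 300 UMIs. The 12 astrocyte markers were also highest in library 2 in both classes, summing to 4051, 5161 and 4026 CPM in pericyte-like and 1889, 3294 and 2517 CPM in arterial muscle-like cells of libraries 1, 2 and 3, with 4 of them, Aqp4 and Gjb6 included, at 0 in arterial muscle-like cells of library 1, and their part in these values was not tested. In pericyte-like cells the 8 pericyte markers summed to 11613, 9519 and 8568 CPM in libraries 1, 2 and 3. The 10 endothelial markers summed there to 9655, 13958 and 12460 CPM, highest in library 2, and their part was not tested. The ratio of Mt1 in library 3 to library 2 over all UMIs was below 1 in all 7 classes, from 0.479 to 0.775. All 7 intervals left out 1, and the ratio passed 1.5-fold in the 2 neuron-like, the endothelial-like and the pericyte-like classes. At 300 UMIs the interval of the GABA neuron-like class held 1, at 0.479 (0.208 to 1.05). In library 2 against 1 at 300 UMIs, Mt1 and Mt2 were lower in that class, beside 1.09% of all genes. The astrocyte-like class had the highest level of Mt1 in every library, and the part of free RNA from its cells in the other classes was not tested. The ratio of Tsc22d3 in library 2 to library 1 was above 1 with an interval that left out 1 in 4 of the 7 classes over all UMIs, and the gene stood at 547, 423 and 458 CPM in arterial muscle-like cells, where library 2 was the lowest. For Dbp the ratio of library 2 to library 1 was below 1 with an interval that left out 1 in astrocyte-like cells alone, and whether the classes differ in this was not tested.

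**Figure D5:**
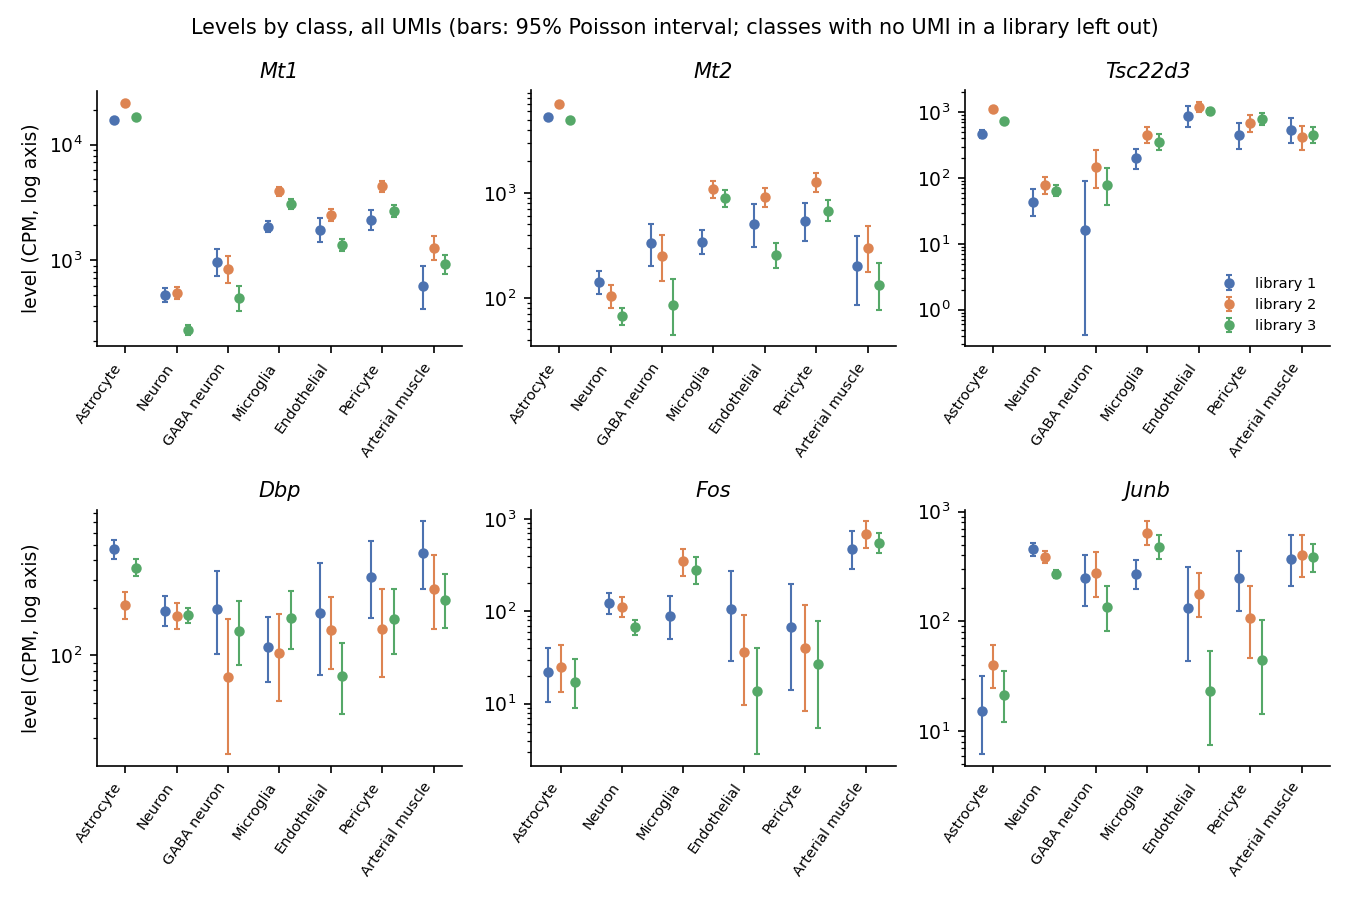
Level (CPM, log axis) of Mt1, Mt2, Tsc22d3, Dbp, Fos and Junb over all UMIs in up to 7 classes of libraries 1, 2 and 3, with exact Poisson 95% intervals as error bars. The points of Mt1 lie lower in library 3 than in library 2 in every class shown, and Fos is lowest in library 1 in microglia-like cells.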

How the data were processed

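Single-cell RNA was measured with the 10x Chromium version 2 kit in 9 libraries. The values are whole UMI counts per gene and cell, deposited by the authors as a single table of 18634 genes. The submitters' processing notes name Cell Ranger 2.2.0, R 3.5.3 and GRCm38. Cells had been filtered before deposit, and libraries 1 to 3 held slightly more cells in all than the study states for the cortex. Supplementary sheets were used only in the check of the library order.

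After scaling each cell to 10000 counts and taking logarithms, the 2000 most variable genes were reduced to 13 principal components, and cells were clustered by Leiden at resolution 1 (seed 1). Naming a cluster required that 3 or more markers of a type were 2-fold higher than in the other cells and present in at least 10% of its cells, with no other type in the lead. Scrublet called 90, 1 and 6 doublets in libraries 1, 2 and 3, too few in libraries 2 and 3 to count as working, and all cells were kept. Cells were thinned to 500 UMIs, counts were summed by class and library, and CPM were given exact Poisson intervals, shares exact Clopper-Pearson intervals and ratios exact conditional intervals, all at 95%. Log2 ratios had 10 CPM added. Genes of at least 50 CPM on average and classes of at least 50 kept cells in each library were compared. The intervals were tried on counts simulated under the sampling model that they assume. Such counts hold no spread between cells beyond sampling, so this could not show how the intervals hold on these data.

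The 3 highest and 3 lowest genes per class and comparison were named among genes of at least 100 CPM with a 1.5-fold difference and an interval that left out 1, apart from mitochondrial, ribosomal, hemoglobin and unnamed genes, and members of the gene lists and genes the study names for the cortex were added. A few genes are not reported here. Libraries, lists and rules were chosen with earlier results of these data known. Alternatives were 300 UMIs per cell, all UMIs, 1 CPM added, a gene minimum of 20 CPM, totals that leave out mitochondrial and hemoglobin genes, resolution 0.5, cells of at least 1000 UMIs and removal of called doublets. After seeing the data, cells of at least 500 UMIs, the largest astrocyte-like cluster alone, and clustering with library 3 thinned to the median depth of library 1 were added. Clusters were made with scanpy 1.11.5, leidenalg 0.10.2 and python-igraph 0.11.9, with scikit-learn 1.9.0 for components. The remaining steps used matplotlib 3.10.9, scipy 1.17.1, numpy 2.4.6 and pandas 2.3.3 in Python 3.11.15.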

Additional observations from a re-analysis of the deposited data

How the results depend on the processing

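Each comparison has 1 library on each side, so differences between mice, dissections and library preparations cannot be told apart from the sleep groups, and the order of the libraries is inferred. Library 3 was deeper and had a higher minimum of UMIs per cell. No paired analysis was possible because each group has 1 library and the labels give no replicate numbers. Of the log2 ratios of named genes under the alternatives, 899 kept their direction and moved little, 46 moved further and 9 reversed. These counts pool all the alternatives and do not show how many genes stayed past 1.5-fold. Of the medians of gene lists, 1102 moved little and 20 moved further.

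The cause of the following moves was not tested. At 300 UMIs per cell the share of genes past 1.5-fold in astrocyte-like cells was 18.3% for library 2 against 1 and 14.8% for library 3 against 2. Over all UMIs these shares were 13.4% and 6.98% in astrocyte-like and 5.04% and 2.17% in neuron-like cells. In neuron-like cells they were 13.7% and 8.87% at resolution 0.5, and 21.0% for library 3 against 2 with genes of at least 20 CPM.

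At 300 UMIs per cell the log2 ratios of Cacna1b in neuron-like cells were 0.10 for library 2 against 1 and -0.12 for library 3 against 2, that of Hcfc1r1 was -0.82 for library 2 against 1, and that of Sep15 was 0.32 for library 3 against 2, all reversed. In cluster 2 alone over all UMIs, Nisch at 0.21 and Pfdn2 at 0.0026 for library 2 against 1, and Snap25 at 0.79, Syt1 at 0.86 and Nap1l5 at 0.043 for library 3 against 2, were reversed.

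At resolution 0.5 neuron-like cells made up 23.5%, 27.7% and 36.6% and endothelial-like cells 6.14%, 13.2% and 13% of libraries 1, 2 and 3. With library 3 thinned before clustering, endothelial-like cells made up 6.14%, 13% and 12.5%, and neuron-like cells 16.3% of library 2 and 24.0% of library 3. Among cells of at least 500 UMIs, astrocyte-like cells made up 28.0% and 18.6%, neuron-like cells 33.1% and 34.5% and microglia-like cells 5.48% and 3.51% of libraries 1 and 2, and endothelial-like cells 6.23% of library 2. Among cells of at least 1000 UMIs, the shares were 5.52%, 5.08% and 10.9% for astrocyte-like, 62.3%, 61.9% and 56.6% for neuron-like and 2.15%, 2.08% and 2.77% for microglia-like cells. Endothelial-like cells then made up 0.0% of library 1 (0 of 326 cells, where 3 cells would be a share of 0.92%), 2.08% of library 2 and 5.55% of library 3.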
